A study of Caenorhabditis elegans with 12 samples.

Results

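The C-type lectin genes of the nematode Caenorhabditis elegans were taken as every gene whose name is clec followed by a number. This gave 207 of the 19568 genes in the deposited table, of which 195 are protein-coding and 12 are pseudogenes. Total RNA of whole worms at the L4 stage, the last larval stage before adulthood, was sequenced in 12 libraries, with 4 genotypes of 3 biological replicates. They were the double mutant lonp-1(cmh24)_mrps-38(P210L), the single mutants lonp-1(cmh24) and mrps-38(P210L), and wildtype (library names N2). All groups were fed HT115 E. coli. The product of lonp-1 is a mitochondrial protease that degrades misfolded proteins, that of mrps-38 belongs to the mitochondrial ribosome, and the comparisons ask what each mutation does alone and what a mitoribosomal mutation does in worms with altered LONP-1. The labels do not say what kind of lesion cmh24 is, nor whether the replicates came from separate cultures, so p-values measure only the spread between these samples.

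C-type lectins share a small fold that, in its classical members, binds sugars with the help of calcium. C. elegans has many of them, most of them secreted or membrane proteins known only from their sequence. A part of the family is made in the intestine and is induced by bacterial infection, in part under the p38 MAP kinase PMK-1 and intestinal transcription factors. Other members are made in the epidermis, the nervous system or the germline.

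Each library held 22614493 to 22890539 reads in genes, and 18072 to 19209 genes were detected per library. Levels are given as the authors' normalized counts, that is, reads divided by 1 size factor per library, which suits comparisons of 1 gene between libraries. Levels of single genes are compared with each other as FPKM (reads scaled by gene length and by library total), while sums over several genes and shares of such sums are in reads or normalized counts and weight longer genes more. Of the 207 clec genes, 129 averaged 10 or more normalized counts over the libraries and entered the limma test, which is 62.3% of the family against 80.3% of all genes. The other 78 had means of 0.759 to 9.66. Changes are log2 fold changes ± SE over 3 libraries per group, and rises and falls are those whose p, adjusted over all 15717 genes tested, was under 0.05.

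By the positions in the deposited table, which match WBcel235, 78 clec genes lie on chromosome V, 50 on IV, 39 on II, 21 on I, 16 on III and 3 on X. The longest annotated product of a coding member ranges from 153 to 3514 residues with a median of 333. The longest is CLEC-78, followed by CLEC-223 with 1034 and CLEC-180 with 896 residues.

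Levels differed widely within the family. clec-63 (chromosome II, 12895638 to 12897446) had the highest mean level with 1241 FPKM, followed by clec-50 (508 FPKM), clec-87 (180 FPKM), clec-1 (168 FPKM), clec-150 (132 FPKM), clec-265 (130 FPKM) and clec-83 (115 FPKM). These 7 were the members with a mean above 100 FPKM, 44 were above 10 FPKM and 101 were below 1 FPKM. The next in order were clec-65 (87.02 FPKM), clec-48 (69.0 FPKM), clec-62 and clec-186 (48.5 FPKM each) and clec-88 (47.96 FPKM). The order differed between genotypes, since clec-87 stood at 283 ± 6.4 FPKM in the double mutant, 414 ± 93 FPKM in lonp-1(cmh24), 6.1 ± 1.1 FPKM in mrps-38(P210L) and 17.3 ± 2.8 FPKM in wildtype (SD, n = 3).

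The whole family took 0.560 ± 0.006% of reads in the double mutant, 0.503 ± 0.039% in lonp-1(cmh24), 0.429 ± 0.007% in mrps-38(P210L) and 0.374 ± 0.010% in wildtype (SD, n = 3). The ranges of the 4 groups did not overlap. Summed normalized counts were 123100 ± 1093 in the double mutant, 95360 ± 8434 in lonp-1(cmh24), 113600 ± 1972 in mrps-38(P210L) and 82980 ± 3819 in wildtype, so the order of the 2 single mutants depends on the scaling. Both scales put the double mutant highest and wildtype lowest. clec-63 alone held 31.7% of the family's normalized counts in the double mutant, 33.9% in lonp-1(cmh24), 38.6% in mrps-38(P210L) and 34.6% in wildtype. More members were detected in worms with the lonp-1 mutation, 198 to 199 per library in the double mutant and 199 to 204 in lonp-1(cmh24), against 169 to 177 in mrps-38(P210L) and 181 to 187 in wildtype. Over all genes the libraries had the same order, with 18890 to 18917 genes detected in the double mutant, 19131 to 19209 in lonp-1(cmh24), 18072 to 18337 in mrps-38(P210L) and 18515 to 18610 in wildtype. In whole worms, fewer cells of a type and less RNA per cell cannot be told apart.

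In lonp-1(cmh24) against wildtype, 37 of the 129 tested clec genes rose and 52 fell, where 30.6% of all genes tested rose and 32.1% fell. In mrps-38(P210L) against wildtype, 52 rose and 38 fell, against a background of 31.5% and 34.7%. Comparing the double mutant to lonp-1(cmh24), 66 rose and 23 fell (background 29.8% and 24.5%), and to mrps-38(P210L) 46 rose and 50 fell (background 43.6% and 40.0%). Set against wildtype, the double mutant had 53 rising and 36 falling (background 40.9% and 33.6%). In total 124 of the 129 were called in at least 1 of these 5 comparisons, the same share as among all genes (96.1%). The share of clec genes called was thus near that of all genes in each comparison, apart from the double mutant against lonp-1(cmh24), where 69.0% of clec genes and 54.3% of all genes were called, and against mrps-38(P210L), where it was 74.4% and 83.6%.

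Changes that were called and at least 2-fold were found for 57 members (44.2%) in lonp-1(cmh24) against wildtype, where 17.5% of all genes had them. Of these, 27 rose and 30 fell, with a background of 10.9% and 6.60%. The same held for 51 members (39.5%) in mrps-38(P210L) against wildtype (background 21.6%), with 22 rising and 29 falling (background 5.48% and 16.1%). For the double mutant it held for 56 members (43.4%) against lonp-1(cmh24) (background 19.4%), with 40 rising and 16 falling (background 11.8% and 7.58%). Against mrps-38(P210L) the share in the double mutant was 50.4% (background 44.7%), with 34 rising and 31 falling (background 26.1% and 18.6%). Against wildtype it was 41.9% (background 30.3%), with 29 rising and 25 falling (background 18.3% and 12%). Members share sequence and neighbourhood and are not independent, so these shares are descriptions.

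**Figure D1:**
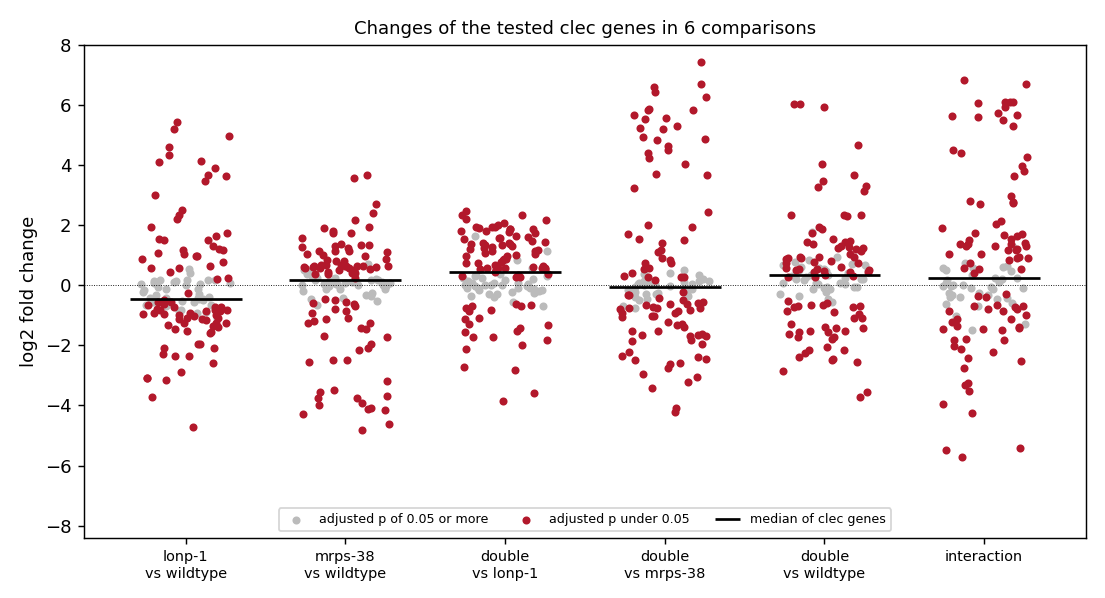
Log2 fold changes (y axis) of the 129 tested clec genes in the 5 comparisons of 2 groups and the interaction (x axis). Each point is 1 gene, red where the adjusted p was under 0.05, and the black bar is the median of the clec genes, which was -0.46 for lonp-1(cmh24) and 0.17 for mrps-38(P210L) against wildtype.

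The medians of the tested members against wildtype were -0.46 in lonp-1(cmh24) and 0.17 in mrps-38(P210L), beside -0.06 and -0.01 over all genes tested. For the double mutant they were 0.44 against lonp-1(cmh24), -0.06 against mrps-38(P210L) and 0.33 against wildtype, beside 0.03, 0.05 and 0.09 over all genes. On the FPKM table, which scales to total reads, the median of all genes moved by 0.23 for lonp-1(cmh24) and by -0.25 for mrps-38(P210L) against wildtype. It moved by -0.21 for the double mutant against lonp-1(cmh24) and by 0.27 against mrps-38(P210L). On that scale lonp-1(cmh24) against wildtype had 44 rising and 44 falling clec genes with a median of -0.20, where 41.1% of all genes rose and 20.1% fell. The clec median for mrps-38(P210L) against wildtype turned to -0.08, with 35 rising and 42 falling of the 125 tested on that scale. There 16.4% of all genes rose and 48.2% fell. The clec median for the double mutant against mrps-38(P210L) turned to 0.23. The split in the double mutant relative to lonp-1(cmh24) was 53 rising and 30 falling on FPKM, where 18.7% of all genes rose and 41.2% fell. Relative to the median of all genes, the clec median kept its sign in each of the 5 comparisons on both scales. With no filter, over all 207 members, lonp-1(cmh24) against wildtype had 56 rising and 57 falling (background 29.0% and 26.3%) with a median of -0.01, beside 0.00 over all genes. The median of the double mutant against mrps-38(P210L) was then 0.14, above that of all genes (0.07).

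**Figure D2:**
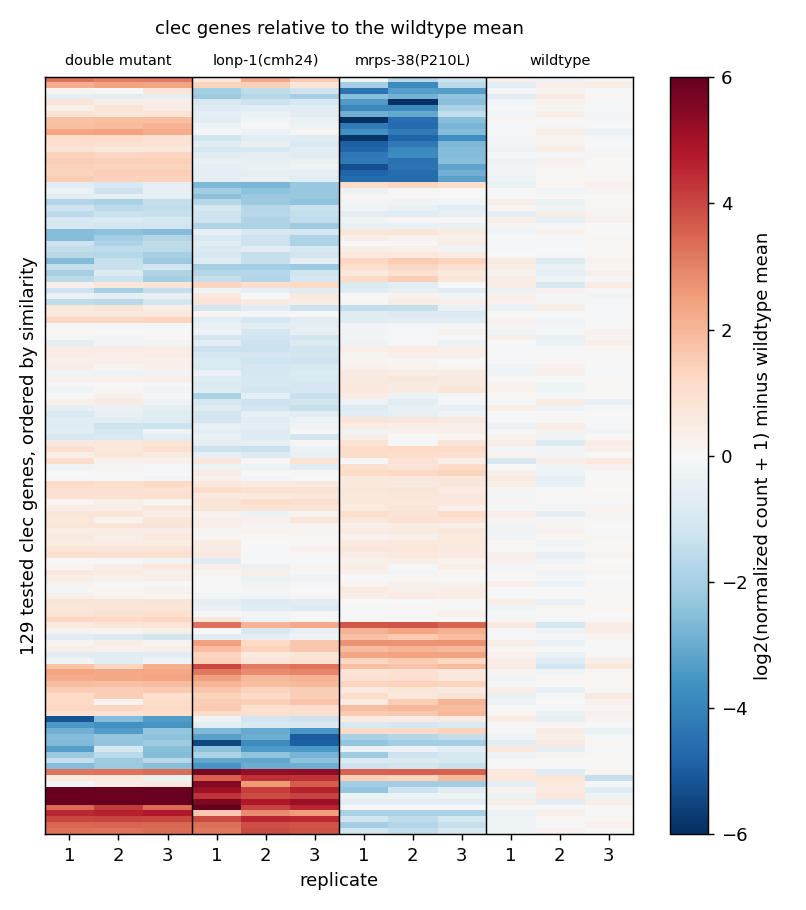
Colour gives log2(normalized count + 1) minus the wildtype mean for the 129 tested clec genes (rows, ordered by similarity) in the 12 libraries (columns, replicates 1 to 3 of each genotype); the colour scale ends at -6 and 6. A block near the top is blue in the 3 mrps-38(P210L) libraries and paler in replicate 3, and a block at the bottom is red in the double mutant and lonp-1(cmh24).

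clec-60 and clec-42, which respond to bacteria, rose in each single mutant and were lower in the double mutant than in either. clec-60, a gene of the intestine whose reporter marks infection, had normalized counts of 112, 130 and 114 in the double mutant, 568, 231 and 310 in lonp-1(cmh24), 671, 672 and 666 in mrps-38(P210L), and 131, 77.0 and 105 in wildtype. Both single mutants stood above all wildtype libraries, and the double mutant overlapped wildtype. clec-60 rose by 1.75 ± 0.28 in lonp-1(cmh24) (adjusted p = 0.000259) and by 2.71 ± 0.28 in mrps-38(P210L) (adjusted p = 1.04e-05) against wildtype. Its change in the double mutant was -1.53 ± 0.28 against lonp-1(cmh24), -2.49 ± 0.28 against mrps-38(P210L) and 0.22 ± 0.28 against wildtype, the last with an adjusted p of 0.497.

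clec-42, studied with clec-41 and clec-4 in defence against Bacillus thuringiensis, had 119.2, 134 and 138 normalized counts in the double mutant, 778, 328 and 386 in lonp-1(cmh24), 1061, 1096 and 921 in mrps-38(P210L), and 121, 38.01 and 110 in wildtype. Replicate 1 of lonp-1(cmh24) was high and replicate 2 of wildtype low, as for clec-60. clec-42 rose by 2.52 ± 0.44 in lonp-1(cmh24) and by 3.66 ± 0.44 in mrps-38(P210L) (adjusted p = 0.000752 and 6.27e-05). Its change in the double mutant was -1.82 ± 0.44 against lonp-1(cmh24) and -2.97 ± 0.44 against mrps-38(P210L), and 0.69 ± 0.44 against wildtype with an adjusted p of 0.179.

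clec-41 and clec-4 moved otherwise. clec-41 had 4553, 4501 and 4676 normalized counts in the double mutant, 2999, 1681 and 2031 in lonp-1(cmh24), 2035, 2099 and 1923 in mrps-38(P210L), and 2066, 1812 and 1996 in wildtype. The double mutant lay above all other libraries, of which replicate 1 of lonp-1(cmh24) was the highest. clec-41 showed a rise there of 1.23 ± 0.16 against wildtype, while the single mutants had log2 fold changes of 0.15 ± 0.16 (lonp-1(cmh24)) and 0.05 ± 0.16 (mrps-38(P210L)). clec-4 had 1355, 1307 and 1284 in the double mutant, 2326, 1882 and 1988 in lonp-1(cmh24), 463, 491 and 408 in mrps-38(P210L), and 294, 213 and 279 in wildtype. The 4 groups did not overlap for clec-4, which rose by 2.98 ± 0.12 in lonp-1(cmh24), 0.80 ± 0.12 in mrps-38(P210L) and 2.34 ± 0.12 in the double mutant against wildtype.

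clec-67 and clec-85, both known targets of the PMK-1 pathway, rose in all 3 mutants against wildtype. clec-67 had 2146, 2210 and 2086 normalized counts in the double mutant, 2673, 1781 and 1847 in lonp-1(cmh24), 3239, 3440 and 3345 in mrps-38(P210L), and 910, 836 and 963 in wildtype. It rose by 1.25 ± 0.12 in the double mutant, 1.19 ± 0.12 in lonp-1(cmh24) and 1.89 ± 0.12 in mrps-38(P210L), and every mutant library lay above every wildtype library. clec-85 changed less, by 0.76 ± 0.08, 0.22 ± 0.08 and 0.36 ± 0.08 in the same order, and its 2 smaller rises were not stable. That in lonp-1(cmh24) missed the threshold in a fit of the 2 groups alone (adjusted p = 0.0719), and that in mrps-38(P210L) did so on FPKM (adjusted p = 0.335). A gene on the same strand, Y54G2A.40, overlaps 27.7% of the exon bases of clec-85, so its reads are uncertain.

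clec-49, with clec-39 needed for defence against Serratia marcescens, went down in lonp-1(cmh24) and not in the double mutant. It had 973, 972 and 933 normalized counts in the double mutant, 279, 281 and 306 in lonp-1(cmh24), 900, 968 and 910 in mrps-38(P210L), and 642, 683 and 758 in wildtype. Its log2 fold change in lonp-1(cmh24) against wildtype was -1.26 ± 0.07, and the double mutant was higher than lonp-1(cmh24) by 1.73 ± 0.07. clec-39 was not tested, with 0 to 1.0 normalized counts in the double mutant, 1.6 to 3.3 in lonp-1(cmh24), 4.7 to 10.4 in mrps-38(P210L) and 3.0 to 6.9 in wildtype. clec-38, known in axon outgrowth and presynaptic development, was near the limit of testing, with 2.9, 3.9 and 1.9 in the double mutant, 3.4, 2.5 and 5.0 in lonp-1(cmh24), 25.7, 31.8 and 18.6 in mrps-38(P210L), and 14.9, 8.6 and 9.9 in wildtype. It was lower in the double mutant than in mrps-38(P210L) by a log2 fold change of -2.76 ± 0.35.

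clec-61, a neighbour and relative of clec-60 that is also induced by infection, had 1.0, 10.7 and 5.8 normalized counts in the double mutant, 57.3, 30.4 and 28.9 in lonp-1(cmh24), 99.2, 97.9 and 98.6 in mrps-38(P210L), and 94.2, 45.6 and 76.9 in wildtype. The double mutant lay below every other library. Its change there was -3.71 ± 0.55 against wildtype (adjusted p = 0.000103) and, without the lowest double-mutant library (replicate 1), -2.98. The single mutants had log2 fold changes of -0.89 ± 0.55 (lonp-1(cmh24)) and 0.50 ± 0.55 (mrps-38(P210L)), which missed the threshold.

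**Figure D3:**
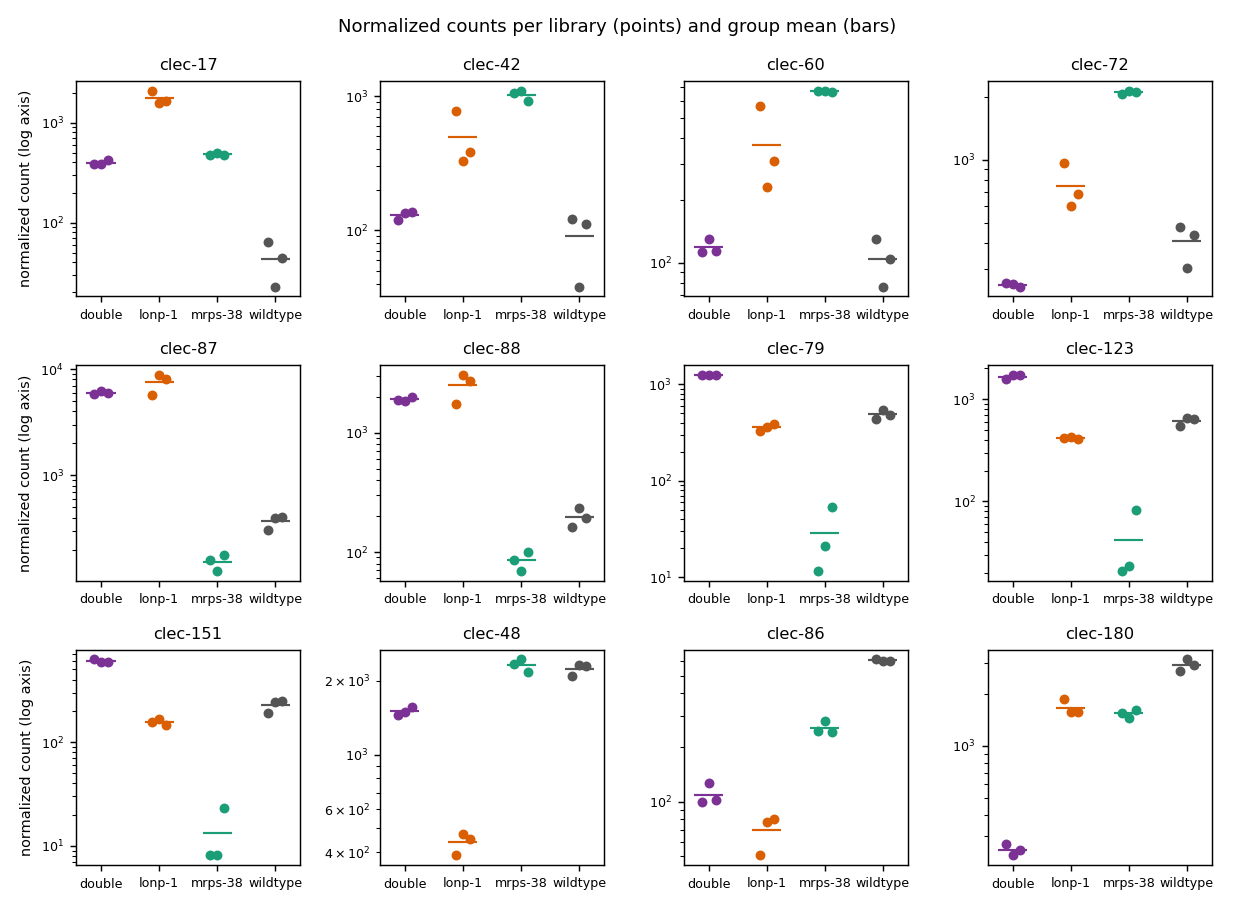
Normalized counts (y axes, logarithmic) of 12 clec genes in the double mutant, lonp-1(cmh24), mrps-38(P210L) and wildtype (x axes); points are libraries and bars are group means of 3. clec-17, clec-42, clec-60 and clec-72 stand high in both single mutants and lower in the double mutant, clec-87 and clec-88 are high in both groups with the lonp-1 mutation, and clec-79, clec-123 and clec-151 are low in mrps-38(P210L).

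The largest rise of the family in lonp-1(cmh24) among genes with a mean of at least 50 was that of clec-17 (chromosome I, 12430028 to 12431500). It had 385, 387 and 425 normalized counts in the double mutant, 2094, 1571 and 1649 in lonp-1(cmh24), 479, 500 and 479 in mrps-38(P210L), and 63.5, 22.8 and 44.3 in wildtype. clec-17 was 42.7-fold higher in lonp-1(cmh24) than in wildtype, with a log2 fold change of 5.42 ± 0.29 (adjusted p = 8.4e-08), and rose by 3.57 ± 0.29 in mrps-38(P210L). The double mutant stayed above wildtype by 3.28 ± 0.29 and below lonp-1(cmh24) by a log2 fold change of -2.14 ± 0.29.

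clec-87, which encodes a chondroitin proteoglycan, had 5819, 6166 and 5924 normalized counts in the double mutant, 5678, 8773 and 8078 in lonp-1(cmh24), 160, 126 and 176 in mrps-38(P210L), and 304, 400 and 402 in wildtype. Both groups with the lonp-1 mutation stood far above the other libraries. It rose by 4.33 ± 0.17 in lonp-1(cmh24) and by 4.02 ± 0.17 in the double mutant against wildtype (adjusted p = 8.7e-09 and 7.63e-09), and fell in mrps-38(P210L) by a log2 fold change of -1.26 ± 0.17. clec-88 (1901, 1851 and 1988 in the double mutant, 1763, 3059 and 2739 in lonp-1(cmh24), 86.4, 69.6 and 99.8 in mrps-38(P210L), and 162, 234 and 193 in wildtype) and clec-91 (1254, 1308 and 1250 in the double mutant, 1128, 1697 and 1586 in lonp-1(cmh24), 26.8, 33.0 and 44.1 in mrps-38(P210L), and 95.2, 115 and 139 in wildtype) had the same pattern. Of the exon bases of clec-87, 14.4% lie opposite exons of iars-2, and the strand setting of the counting was not stated.

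clec-223, the second longest product, was close to 0 without the lonp-1 mutation, with 333, 321 and 338 normalized counts in the double mutant, 174, 88.9 and 124 in lonp-1(cmh24), 0, 1.2 and 2.3 in mrps-38(P210L), and 5.0, 6.7 and 2.0 in wildtype. It rose by 4.61 ± 0.43 in lonp-1(cmh24) and by 6.01 ± 0.43 in the double mutant against wildtype. Against mrps-38(P210L), where the 3 libraries held 3 reads, the ratio in the double mutant was 283 with a 95% counting interval of 96.5 to 1374. The low genes clec-59, clec-97, clec-190 and clec-222, chosen after their values were seen, were without a single read in the mrps-38(P210L) libraries. With a floor of 3 reads per library, clec-222, clec-97 and clec-190 were at least 29-fold, 27.5-fold and 21.3-fold higher in the double mutant than in mrps-38(P210L). clec-59, also without a read in wildtype, was at least 12.96-fold higher in lonp-1(cmh24) than in wildtype. Its bound in the double mutant against mrps-38(P210L) was 3.48-fold. clec-223 and these low genes passed the filter through the groups where they are high, so the direction of these folds is in part built in.

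The yolk genes differed between the same libraries. These genes (6 vit genes, made in the adult intestine) took 2.45% of reads in the double mutant, 0.949 ± 0.17% in lonp-1(cmh24), 0.0017 ± 0.0018% in mrps-38(P210L) and 0.104 ± 0.009% in wildtype. In lonp-1(cmh24) against wildtype 5 of the 6 rose, and in mrps-38(P210L) all 6 fell. No vit gene was at 0 in any group. Their part in the clec results was not tested.

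Further members that rose in lonp-1(cmh24) were clec-125 (2.18 ± 0.18) and clec-265 (1.94 ± 0.06). clec-265, among the 12 highest of the family, had 3886, 3679 and 3969 normalized counts in the double mutant, 4340, 3883 and 4020 in lonp-1(cmh24), 2566, 2723 and 2554 in mrps-38(P210L), and 1017, 1065 and 1101 in wildtype. All mutant libraries lay above wildtype. It rose by 1.30 ± 0.06 in mrps-38(P210L) and by 1.86 ± 0.06 in the double mutant.

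Among the 52 members that fell in lonp-1(cmh24), clec-247 and clec-86 had the largest changes of the genes with a mean of at least 50. clec-247 had 23.8, 29.1 and 33.7 normalized counts in the double mutant, 2.5, 9.9 and 4.1 in lonp-1(cmh24), 29.2, 35.4 and 37.1 in mrps-38(P210L), and 97.2, 229 and 162 in wildtype, and changed by -4.73 ± 0.38 in lonp-1(cmh24). clec-86 had 99.2, 127 and 102 in the double mutant, 50.6, 77.3 and 80.1 in lonp-1(cmh24), 248, 280 and 244 in mrps-38(P210L), and 616, 602 and 605 in wildtype, and changed by -3.14 ± 0.16 in lonp-1(cmh24). Both fell in all 3 mutants against wildtype. alh-10 lies opposite 10.5% of the exon bases of clec-86.

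clec-48 and clec-50 are abundant members, and both fell in lonp-1(cmh24). clec-48 had 1447, 1487 and 1564 normalized counts in the double mutant, 389, 473 and 454 in lonp-1(cmh24), 2331, 2444 and 2179 in mrps-38(P210L), and 2098, 2323 and 2290 in wildtype. Its change in lonp-1(cmh24) against wildtype was -2.35 ± 0.07 (adjusted p = 8.42e-11), a 5.10-fold lower level, and the double mutant was higher than lonp-1(cmh24) by 1.77 ± 0.07 and still below wildtype by -0.58 ± 0.07. clec-50 had 13751, 13837 and 13990 in the double mutant, 6822, 5845 and 6076 in lonp-1(cmh24), 17289, 18144 and 16859 in mrps-38(P210L), and 11096, 11192 and 12009 in wildtype. clec-50 changed by -0.87 ± 0.06 in lonp-1(cmh24) and by 0.61 ± 0.06 in mrps-38(P210L), and rose by 1.15 ± 0.06 in the double mutant relative to lonp-1(cmh24).

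The falls in lonp-1(cmh24) of clec-82 (-2.58 ± 0.20), clec-169 (-2.08 ± 0.17), clec-47 (-1.95 ± 0.10), clec-53 (-1.52 ± 0.22) and clec-229 (-1.47 ± 0.21) completed the 8 largest among genes with a mean of at least 50. In mrps-38(P210L), clec-82 and clec-169 rose by 1.14 ± 0.20 and 1.10 ± 0.17. Comparing the double mutant to lonp-1(cmh24), clec-82, clec-169, clec-47 and clec-53 rose, and clec-229 had a log2 fold change of 0.06 ± 0.21. The call for clec-53 (0.55 ± 0.22, adjusted p = 0.0453) was lost on FPKM and with TMM factors (adjusted p = 0.181 and 0.137), and in edgeR (adjusted p = 0.0598).

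In mrps-38(P210L) against wildtype, a fall of at least 8-fold was called for 14 of the 129 members, where 8.33% of all genes had one. These 14, chosen after their values were seen, were clec-73, clec-79, clec-117, clec-119, clec-123, clec-142, clec-151, clec-152, clec-153, clec-154, clec-175, clec-208, clec-236 and clec-260, of which clec-152, clec-154 and clec-236 are pseudogenes. Their summed normalized counts were 7640, 7652 and 7600 in the double mutant, 1993, 2066 and 2042 in lonp-1(cmh24), 110, 128 and 422 in mrps-38(P210L), and 2606, 3312 and 3030 in wildtype. The 4 groups did not overlap, and replicate 3 of mrps-38(P210L) was the highest of its group. All 14 were higher in the double mutant than in mrps-38(P210L), by 3.70 to 6.41, but the low libraries that chose them are part of this comparison. Of the 14, 13 were also higher in the double mutant than in lonp-1(cmh24) (background 29.8%) and 8 were higher than in wildtype (background 40.9%). In lonp-1(cmh24) against wildtype 1 of them (clec-208) fell (background 32.1%). Only the comparison of the double mutant with lonp-1(cmh24) shares no library with the choice of the 14.

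clec-123 had 1556, 1715 and 1704 normalized counts in the double mutant, 420, 422 and 403 in lonp-1(cmh24), 21.01, 23.6 and 82.4 in mrps-38(P210L), and 541, 657 and 637 in wildtype. clec-79 had 1247, 1243 and 1242 in the double mutant, 330, 359 and 391 in lonp-1(cmh24), 11.7, 21.2 and 53.4 in mrps-38(P210L), and 433, 541 and 487 in wildtype. Both were highest in the double mutant and lowest in mrps-38(P210L), without overlap. clec-79 was 19.6-fold lower in mrps-38(P210L) than in wildtype (-4.29 ± 0.41, adjusted p = 1.27e-05) and clec-123 17.1-fold lower (-4.10 ± 0.42, adjusted p = 2.2e-05). Without replicate 3 of mrps-38(P210L), the change of clec-123 was -4.71.

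clec-151 to clec-154 lie side by side on chromosome III, 4628465 to 4640562, and reads of such neighbouring relatives may have been split among them. clec-151 had 626, 594 and 592 normalized counts in the double mutant, 156, 168 and 146 in lonp-1(cmh24), 8.2, 8.3 and 23.2 in mrps-38(P210L), and 189, 242 and 247 in wildtype. It changed by -4.15 ± 0.30 in mrps-38(P210L) and rose by 1.42 ± 0.30 in the double mutant against wildtype. clec-153 had 361, 378 and 372 in the double mutant, 67.4, 92.2 and 81.7 in lonp-1(cmh24), 0, 3.5 and 17.4 in mrps-38(P210L), and 113, 106 and 102 in wildtype. Its change in mrps-38(P210L) was -4.63 ± 0.82 and varied between -3.56 without replicate 1 and -5.66 without replicate 3 of that group. Its rise in the double mutant relative to lonp-1(cmh24) (2.20 ± 0.82, adjusted p = 0.0466) rested on a thin margin and was lost with TMM factors (adjusted p = 0.0597). For clec-154 the fall was -4.11 ± 0.78 with all libraries and -2.96 without replicate 2 of mrps-38(P210L).

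The log2 fold changes of these members in lonp-1(cmh24) against wildtype were all below 0, and that of clec-208 alone passed the threshold, with a median of -0.60 over the 14. Their test shared 1 estimate of the spread with mrps-38(P210L), where replicate 3 differs from the other 2. In a fit of lonp-1(cmh24) and wildtype alone, clec-79, clec-119, clec-123, clec-151, clec-152, clec-153, clec-154 and clec-260 all passed, with log2 fold changes of -1.10 to -0.42. That fit called 5241 of all 15717 genes lower. The wildtype libraries are part of the choice of the 14, which favours values below 0 in both fits, so no conclusion is drawn from them.

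By share of reads, sperm and germline markers were also lowest in mrps-38(P210L) and highest in the double mutant. Their shares were higher in lonp-1(cmh24) than in wildtype, but most single genes were not called higher there. In lonp-1(cmh24) against wildtype, 0 of 31 sperm genes tested rose and 1 fell (median 0.33). Of the 7 germline markers, 2 rose and 2 fell (median 0.05). The 32 genes of the major sperm proteins took 0.744 ± 0.017% of reads in the double mutant, 0.161 ± 0.007% in lonp-1(cmh24), 0.0072 ± 0.0083% in mrps-38(P210L) and 0.117 ± 0.006% in wildtype (SD, n = 3). Within mrps-38(P210L) their share ran from 0.00242% to 0.0168%, with no gene of the list at 0 over the group. Of 31 tested, all fell in mrps-38(P210L) against wildtype and all rose in the double mutant relative to lonp-1(cmh24). The 7 germline markers took 0.148 ± 0.001% of reads in the double mutant, 0.116 ± 0.008% in lonp-1(cmh24), 0.0397 ± 0.0032% in mrps-38(P210L) and 0.0904 ± 0.0046% in wildtype. They all fell in mrps-38(P210L) (median -1.004) and all rose in the double mutant relative to lonp-1(cmh24) (median 0.49), of which 3 passed on FPKM. Their part in the changes of the 14 clec genes was not tested.

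Among genes with a mean of at least 50, the largest rises in mrps-38(P210L) against wildtype were those of clec-42 and clec-17, given above, followed by clec-60 and by clec-72 (2.40 ± 0.18), clec-76 (1.93 ± 0.14), clec-67 (1.89 ± 0.12), clec-52 (1.73 ± 0.16) and clec-265 (1.30 ± 0.06). clec-72 had 256, 254 and 247 normalized counts in the double mutant, 962, 602 and 688 in lonp-1(cmh24), 2060, 2139 and 2122 in mrps-38(P210L), and 477, 303 and 437 in wildtype. It rose in both single mutants and was lower in the double mutant than in wildtype by -0.66 ± 0.18. clec-76 had 49.6, 47.5 and 51.1 in the double mutant, 147, 105 and 124 in lonp-1(cmh24), 142, 163 and 154 in mrps-38(P210L), and 42.6, 38.96 and 36.5 in wildtype. It was lower in the double mutant than in lonp-1(cmh24) by -1.31 ± 0.14 and differed from wildtype by 0.32 ± 0.14 with an adjusted p of 0.0514. The marker genes of the intestine rose in 7 of 9 in mrps-38(P210L) (median 0.52) and in 2 of 9 in lonp-1(cmh24) (median 0.10, with 1 falling). On FPKM these were 2 of 9 and 6 of 9, and their part in the clec results was not tested.

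Among genes with such means, the largest falls in the double mutant against wildtype were those of clec-61, given above, and of clec-180 and clec-78. clec-180, whose product is among the 3 longest, had 272, 234 and 248 normalized counts in the double mutant, 1867, 1563 and 1573 in lonp-1(cmh24), 1559, 1459 and 1614 in mrps-38(P210L), and 2726, 3167 and 2939 in wildtype. It was 11.7-fold lower in the double mutant than in wildtype (-3.54 ± 0.08, adjusted p = 1.1e-12), while the single mutants changed by -0.82 ± 0.08 (lonp-1(cmh24)) and -0.93 ± 0.08 (mrps-38(P210L)). The changes did not add up on the log2 scale, with an interaction of -1.79 ± 0.12. clec-78 had 101, 114 and 102 in the double mutant, 440, 327 and 310 in lonp-1(cmh24), 1032, 1067 and 918 in mrps-38(P210L), and 520, 772 and 619 in wildtype. It changed by -2.56 ± 0.15 in the double mutant and by -0.82 ± 0.15 in lonp-1(cmh24). The rise of 0.67 ± 0.15 in mrps-38(P210L) missed the threshold on FPKM (adjusted p = 0.0625).

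Of the hypodermal marker genes, all 7 fell in the double mutant against wildtype (median -2.87) and 6 fell in lonp-1(cmh24) (median -1.13), as clec-180 did. In mrps-38(P210L), where clec-180 fell, 5 of them rose and 1 fell (median 0.27). Their share of reads was 0.133 ± 0.002% in the double mutant, 0.400 ± 0.019% in lonp-1(cmh24), 0.682 ± 0.027% in mrps-38(P210L) and 0.758 ± 0.075% in wildtype. Of the other tissue lists in the double mutant against wildtype, 4 of 5 neuronal (median -0.98), 4 of 4 pharyngeal (median -0.55) and 5 of 5 body wall muscle markers (median -0.34) also fell. In lonp-1(cmh24) 4 of 5, 3 of 4 and 5 of 5 fell (medians -0.50, -0.96 and -0.94), and in mrps-38(P210L) 4 of 5, 3 of 4 and 4 of 5 rose (medians 0.30, 0.44 and 0.27). On FPKM the rises in mrps-38(P210L) shrank to 1 of 5 neuronal, 1 of 4 pharyngeal and 0 of 5 muscle markers, and to 2 of 7 hypodermal ones. No marker of these lists was at 0 in any group, and their part in the clec results was not tested.

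The effect of the lonp-1 mutation was compared without and with the mrps-38 mutation, that is, lonp-1(cmh24) against wildtype beside the double mutant against mrps-38(P210L), which share no library. Both were called for 68 of the 129 clec genes (52.7%, background 53.9%). They had the same direction in 49, or 37.98% against 45.9% of all genes, of which 20 were higher both times (15.5%, background 22.4%; clec-4, clec-87, clec-88, clec-91, clec-125 and clec-265 among them) and 29 lower both times (22.5%, background 23.5%; clec-48, clec-50, clec-82, clec-86 and clec-180 among them). Directions were opposite for 19, which is 14.7% of the tested members against 7.99% of all genes. Of these, 10 rose without and fell with the mrps-38 mutation (clec-37, clec-42, clec-52, clec-60, clec-64, clec-67, clec-72, clec-76, clec-146 and clec-266), and 9 did the reverse. On FPKM the opposite members numbered 9 and 11 of 124, or 16.1% against 7.87% of all genes.

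The effect of the mrps-38 mutation, mrps-38(P210L) against wildtype beside the double mutant against lonp-1(cmh24), was called both times for 63 clec genes (48.8%, background 38.9%). It was opposite for 40, or 31.01% of the tested members against 27.2% of all genes. Of these, 13 rose without and fell with the lonp-1 mutation, clec-17, clec-42, clec-60, clec-72 and clec-76 among them, and 27 did the reverse. The 27 include 13 of the 14 members described above, which were chosen by their fall in mrps-38(P210L) against wildtype. The effect had the same direction for 23, or 17.8% against 11.7% of all genes. Of these, 3 fell both times (2.33%, background 4.91%), namely clec-101, clec-180 and clec-239, and 20 rose both times (15.5%, background 6.82%), clec-1, clec-50, clec-63 and clec-71 among them. On FPKM, 7 of 124 rose both times (5.65%, background 1.27%) and 4 fell both times (3.23%, background 15.4%), and 15 and 30 were opposite (12.1% and 24.2%, background 9.88% and 14.4%).

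**Figure D4:**
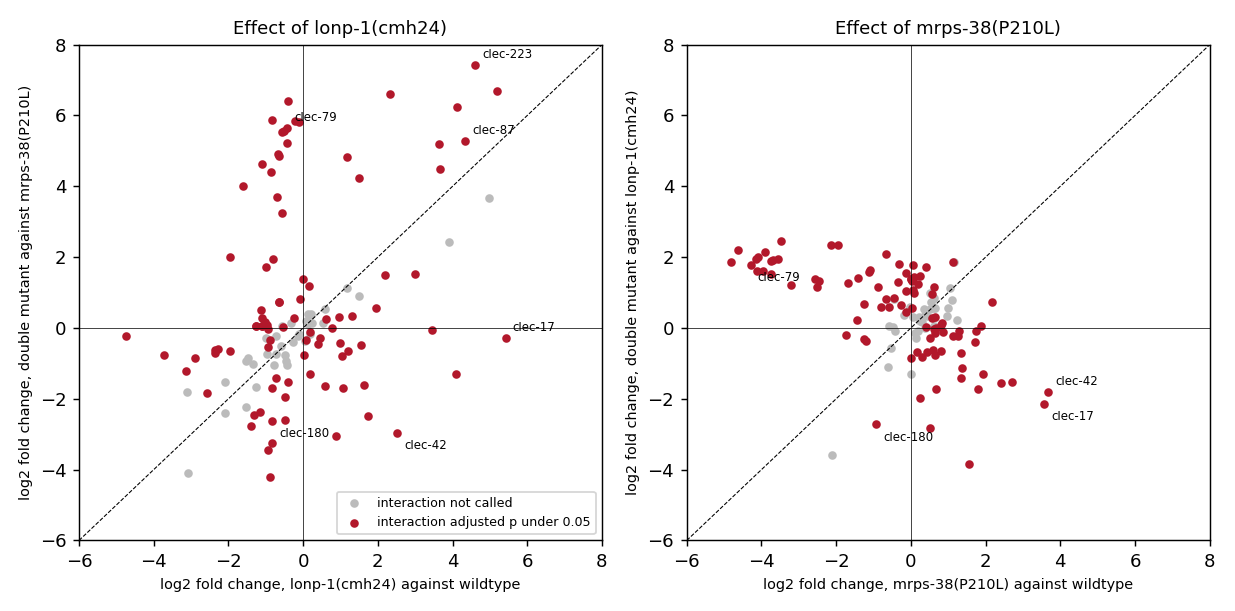
Left, log2 fold changes of the 129 tested clec genes in lonp-1(cmh24) against wildtype (x axis) and in the double mutant against mrps-38(P210L) (y axis); right, in mrps-38(P210L) against wildtype (x axis) and in the double mutant relative to lonp-1(cmh24) (y axis). Red points had an interaction with an adjusted p under 0.05, and the dashed line marks equal changes. On the right, clec-17 and clec-42 lie at the lower right and clec-79 at the upper left.

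The difference of the lonp-1 effect with and without the mrps-38 mutation, the interaction, was called higher for 54 and lower for 38 of the 129 members, against a background of 34.4% and 31.6%. It was called and at least 2-fold for 55.0% of members and 33.9% of all genes, with 45 above 0 and 26 below (background 19.1% and 14.8%). Among genes with a mean of at least 50, the largest were those of clec-153 (6.83 ± 1.16), clec-260 (6.68 ± 0.56), clec-123 (6.09 ± 0.59), clec-151 (6.09 ± 0.43) and clec-79 (6.08 ± 0.58) on the side above 0, and of clec-17 (-5.70 ± 0.40), clec-42 (-5.48 ± 0.62), clec-60 (-4.24 ± 0.40) and clec-72 (-3.94 ± 0.25) below it. For clec-87, clec-88 and clec-91 it was smaller, 0.95 ± 0.25, 0.83 ± 0.29 and 1.54 ± 0.27, beside changes above 3 in both backgrounds. The call for clec-88 (adjusted p = 0.0264) was lost in edgeR (adjusted p = 0.0518).

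clec-266, a low gene, also stood among those that reversed. It had 6.7, 6.8 and 2.9 normalized counts in the double mutant, 59.8, 107 and 103 in lonp-1(cmh24), 12.8, 11.8 and 18.6 in mrps-38(P210L), and 6.9, 7.6 and 1.0 in wildtype. Its rise of 1.56 ± 0.51 in mrps-38(P210L) rested on the lowest wildtype library, since it was 0.87 and missed the threshold without replicate 3 of wildtype. Its rise in lonp-1(cmh24) was 4.10 ± 0.51, and 3.42 without that library. kqt-1 lies opposite 12.2% of its exon bases.

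clec-63, the highest gene of the family, had 38646, 39086 and 39332 normalized counts in the double mutant, 39193, 28549 and 29861 in lonp-1(cmh24), 42818, 44204 and 44388 in mrps-38(P210L), and 31451, 24829 and 30022 in wildtype. The lonp-1(cmh24) libraries spread widest and overlapped wildtype. clec-63 rose by 0.45 ± 0.11 in the double mutant and by 0.61 ± 0.11 in mrps-38(P210L) against wildtype, and had 0.17 ± 0.11 in lonp-1(cmh24) (adjusted p = 0.192). Its rise against lonp-1(cmh24), 0.28 ± 0.11 with an adjusted p of 0.0472, was lost on FPKM (adjusted p = 0.612) and with TMM factors (adjusted p = 0.37).

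clec-1, clec-83, clec-150 and clec-186, also among the 12 highest, rose in the double mutant relative to lonp-1(cmh24) by 0.28 ± 0.09, 1.00 ± 0.08, 0.57 ± 0.08 and 1.45 ± 0.05. clec-83 had 3430, 3612 and 3853 normalized counts in the double mutant, 1913, 1693 and 1844 in lonp-1(cmh24), 1822, 2000 and 2346 in mrps-38(P210L), and 1821, 1987 and 1934 in wildtype. Only the double mutant stood apart for clec-83. The rise of clec-1 was lost on FPKM (adjusted p = 0.601) and with TMM factors (adjusted p = 0.205). Of the other 2 in this group of levels, clec-62 and clec-65 rose in the double mutant against wildtype by 0.80 ± 0.09 and 0.94 ± 0.07.

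Many clec genes lie in runs along the chromosomes, and 74 of the 207 stand in 12 runs of at least 4 members with at most 10 kb between neighbours. Counts per run stand beside these shares of all genes tested. Against wildtype, 40.9% rose and 33.6% fell in the double mutant, 30.6% and 32.1% in lonp-1(cmh24), and 31.5% and 34.7% in mrps-38(P210L). In the double mutant relative to lonp-1(cmh24), 29.8% rose and 24.5% fell. Agreement within a run was not tested. The run from clec-67 to clec-79 (12 members, 8 tested, chromosome IV, 3922165 to 3975721) held members of both patterns. In mrps-38(P210L) against wildtype clec-67, clec-71, clec-72, clec-75 and clec-76 rose, by 1.80 to 2.40, while clec-73 and clec-79 fell, with -3.76 ± 0.42 and -4.29 ± 0.41. clec-70 had -0.52 ± 0.36. Comparing the double mutant to lonp-1(cmh24), clec-73 and clec-79 rose and clec-72, clec-75 and clec-76 fell.

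In some other runs most members moved in the same direction within a given comparison. In the run from clec-62 to clec-66 (5 members, chromosome II, 12893062 to 12906644), which holds clec-63, 4 of 5 rose in the double mutant, 4 in lonp-1(cmh24) and 4 in mrps-38(P210L) against wildtype, with the exception of clec-64 in the double mutant, which fell with -1.41 ± 0.17. clec-64 was also lower in the double mutant than in lonp-1(cmh24), with -1.98 ± 0.17. In the run from clec-80 to clec-85 (5 members, chromosome IV, 2823746 to 2855456) all 5 rose in the double mutant relative to lonp-1(cmh24), by 0.44 to 1.87, on the FPKM scale too. In that comparison 51.2% of all tested clec genes rose. In lonp-1(cmh24) against wildtype that run was mixed, with 1 rising and 3 falling. All 4 of clec-151 to clec-154 fell in mrps-38(P210L), with -4.63 to -3.97.

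The longest run, from clec-40 to clec-33 (15 members, 8 tested, chromosome V, 16839121 to 16869840), had 5 members falling and 2 rising in lonp-1(cmh24) against wildtype, with a median of -0.75, and 2 rising in mrps-38(P210L). On FPKM, 7 of its members were tested, and 3 fell and 2 rose in lonp-1(cmh24). In the run from clec-57 to clec-55 (5 members, 4 tested, chromosome V, 14469231 to 14482317) all 4 rose in mrps-38(P210L), with a median of 0.64, of which 2 passed on FPKM. In the run from clec-165 to clec-170 (6 members, 5 tested, chromosome IV, 1245171 to 1274425) 3 fell in lonp-1(cmh24) and 3 rose in the double mutant relative to lonp-1(cmh24), where FPKM gave 2 rising and 1 falling. The run from clec-143 to clec-61 (5 members, 4 tested, chromosome II, 10468202 to 10490537) holds clec-59, clec-60 and clec-61, and 3 of its 4 fell in the double mutant relative to lonp-1(cmh24).

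**Figure D5:**
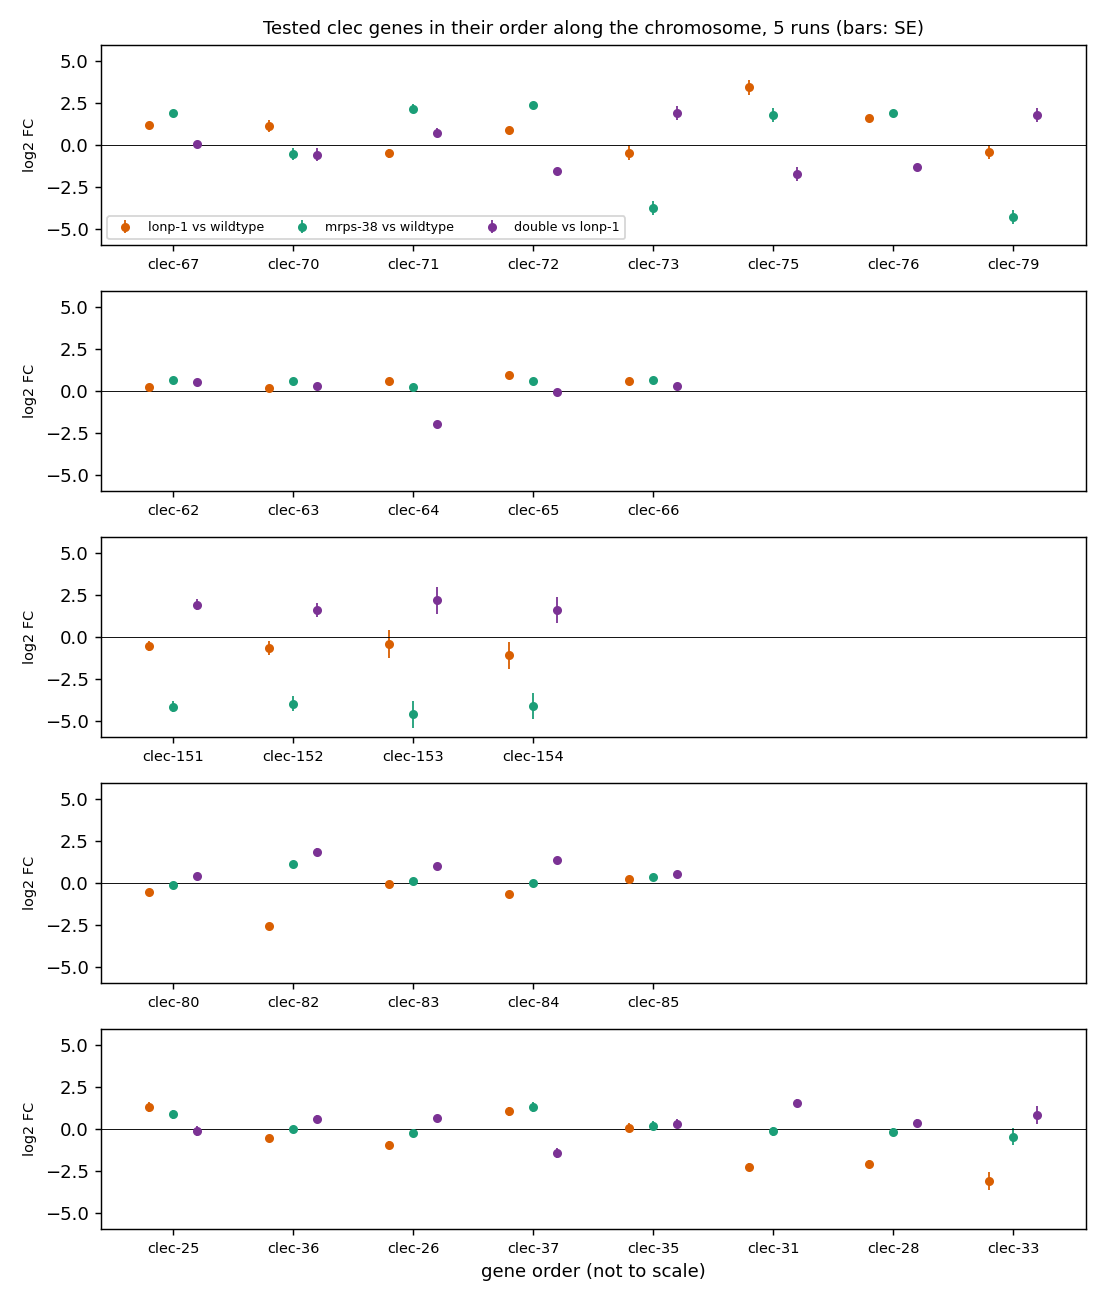
Log2 fold changes ± SE (y axes) of the tested clec genes in 5 runs, in their order along the chromosome (x axes, not to scale), for lonp-1(cmh24) against wildtype, mrps-38(P210L) against wildtype and the double mutant against lonp-1(cmh24). In the top run clec-73 and clec-79 lie below 0 in mrps-38(P210L) at -3.76 and -4.29, while clec-72, clec-75 and clec-76 lie above 0.

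Other genes of intestinal defence were described from lists. Of 8 genes of the p38 pathway (the adaptor tir-1, the kinases nsy-1, sek-1, pmk-1 and pmk-2, the phosphatase vhp-1 and the transcription factors atf-7 and skn-1), 4 rose and 1 fell in the double mutant against wildtype (median 0.24), 6 rose and 1 fell in lonp-1(cmh24) (median 0.41), and 6 rose in mrps-38(P210L) (median 0.51). On FPKM these counts were 4 and 1, 7 and 0, and 4 and 2. The shares of all genes that rose and fell on FPKM were 41.8% and 32.1% in the double mutant, 41.1% and 20.1% in lonp-1(cmh24), and 16.4% and 48.2% in mrps-38(P210L), which also apply to the lists that follow. tir-1 rose by 0.59 ± 0.09 in lonp-1(cmh24) and by 0.50 ± 0.09 in mrps-38(P210L), and its interaction was -0.99 ± 0.13. The interaction was called below 0 for 6 of the 8 and above 0 for none of them, under the authors' scaling, TMM factors and FPKM alike, where 31.6%, 37.8% and 29.0% of all genes were called below 0.

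Of 13 transcription factors and receptors of intestinal defence, 6 rose and 4 fell in the double mutant against wildtype, 5 rose and 1 fell in lonp-1(cmh24), and 8 rose in mrps-38(P210L) (medians 0.04, 0.17 and 0.52). In mrps-38(P210L) hlh-30, the TFEB homologue, rose by 0.92 ± 0.06, zip-2 by 0.83 ± 0.05 and pqm-1 by 1.26 ± 0.13, and all had an interaction near or below -1 (-1.03 ± 0.09, -1.003 ± 0.07 and -1.49 ± 0.18). elt-2, the GATA factor of the intestine, had 0.17 ± 0.13 in lonp-1(cmh24) and 0.06 ± 0.13 in mrps-38(P210L) against wildtype, which missed the threshold. On FPKM the counts were 6 and 4 in the double mutant, 12 and 1 in lonp-1(cmh24), and 7 and 4 in mrps-38(P210L).

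The galectins, sugar-binding proteins of another fold, rose in 8 and fell in 3 of 12 in the double mutant against wildtype, rose in 3 and fell in 6 in lonp-1(cmh24), and rose in 8 in mrps-38(P210L) (medians 0.63, -0.11 and 0.28). Their median in lonp-1(cmh24) turned to 0.12 on FPKM, with 4 rising and 4 falling, and in mrps-38(P210L) FPKM gave 4 rising and 3 falling. Of 12 other secreted effectors, among them lysozymes and infection-response genes, 6 rose and 3 fell in the double mutant, 4 rose and 7 fell in lonp-1(cmh24), and 10 rose in mrps-38(P210L) (medians 0.47, -0.43 and 0.76, and 0.48, -0.20 and 0.50 on FPKM). dod-21 rose by 2.12 ± 0.18 in lonp-1(cmh24) and by 3.23 ± 0.18 in mrps-38(P210L), with an interaction of -3.11 ± 0.25. irg-5, a target of PMK-1, changed by -3.66 ± 0.24 in lonp-1(cmh24) and by 1.44 ± 0.24 in mrps-38(P210L).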

How the data were processed

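RNA of 12 libraries was analysed from 2 kinds of deposited values. Normalized counts, a signal deposited by the authors, are reads per gene divided by 1 size factor per library; STAR, featureCounts, DESeq2 and the build WBcel235 are named, per the submitters' processing notes. FPKM values were deposited by the authors in a table of their own. Whole reads were recovered from the normalized counts, and 100% of values came out whole within 0.01.

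Genes averaging 10 or more normalized counts entered the limma test, version 3.58.1 (R 4.3.3; trend and robust) on log2(normalized count + 1), all 12 libraries in 1 fit, two-sided, with Benjamini-Hochberg adjustment over 15717 genes; fold changes on this scale understate those of low genes. Interaction means the lonp-1 effect with the mrps-38 mutation minus that without it. On FPKM, log2(FPKM + 0.1) and a mean of at least 0.5 were used. edgeR 4.0.16 and DESeq2 1.42.0 were run on the recovered reads, and the test was checked on simulated data. Other alternatives were pseudocounts of 0.5 and 5, no filter or a mean of at least 50, TMM factors, fits of only the groups compared, a replicate block and each library left out.

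The genes named were, per comparison, the 8 largest called rises and falls at a mean of at least 50 with no overlap between the groups, the 12 highest in FPKM, members with a described role and runs. Members and lists were chosen with earlier results of these data known. With 3 libraries a group, an exact permutation test of 1 value cannot go below 0.1, so none was used. Counting intervals and the floor of 3 reads per library cover counting error only. Protein and promoter sequences were not analysed here.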

Additional observations from a re-analysis of the deposited data

Results flagged for a closer look

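The effect of the lonp-1 mutation differed with and without the mrps-38 mutation for 92 of the 129 tested clec genes (71.3%, background 66.0%). This was by the test of the difference itself (limma, adjusted over all genes). The 16 listed here are only the 8 largest on each side among genes with a mean of at least 50. Above 0 were the interactions, on the log2 scale, of clec-153 (6.83), clec-260 (6.68), clec-123 (6.09), clec-151 (6.09), clec-79 (6.08), clec-117 (6.06), clec-175 (5.94) and clec-154 (5.73). All 8 belong to the members that fell at least 8-fold in mrps-38(P210L) against wildtype. That fall is itself a term of the interaction, so the overlap is in part built in. With 1 library of the 12 left out in turn, the value ran from 5.76 to 7.86 for clec-153 and from 4.58 to 6.53 for clec-154.

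Below 0 were those of clec-17 (-5.70), clec-42 (-5.48), clec-60 (-4.24), clec-72 (-3.94), clec-61 (-3.33), clec-76 (-3.25), clec-78 (-2.41) and clec-64 (-2.23). For clec-61 the value was -2.60 without replicate 1 of the double mutant.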

How the results depend on the processing

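Values were recomputed under the alternatives for the 54 named clec genes, except clec-39, which was not tested. Of 6919 values, 6692 kept their direction and side of the threshold, 122 lost the call, 102 gained it and 3 reversed. Many of these genes were named for the largest called changes, so a high share kept is in part a result of that choice. The reversals were in mrps-38(P210L) against wildtype on FPKM, where clec-150 had -0.2132, clec-186 had -0.00585 and clec-48 had -0.204, while the median of all genes moved by -0.25. With fewer members tested at a mean of at least 50, 22 members rose and 33 fell in lonp-1(cmh24) against wildtype, where 4047 of 12921 genes rose and 4558 fell. The double mutant had 15 members falling against lonp-1(cmh24), 33 against mrps-38(P210L) and 22 against wildtype, where 3222, 5313 and 4473 of the 12921 genes fell. With no filter, 56 of all 207 members rose and 57 fell in lonp-1(cmh24) against wildtype (background 29.0% and 26.3%). In the double mutant relative to mrps-38(P210L), 68 rose and 57 fell (background 39.6% and 34.7%). Leaving out each library gave 33 to 38 rising and 48 to 62 falling in lonp-1(cmh24), and 49 to 52 rising and 33 to 39 falling in mrps-38(P210L), both against wildtype. Such counts in the double mutant were 53 to 68 rising and 20 to 23 falling beside lonp-1(cmh24), 45 to 48 and 47 to 52 against mrps-38(P210L), and 47 to 60 and 34 to 40 against wildtype, with 52 to 56 and 31 to 38 for the interaction. These ranges describe how far the calls moved, and no comparison with all genes is drawn from them. Replicate numbers did not pair the samples (correlation of same-numbered deviations -0.159 to 0.122, over 0.1 in 1 of 18 pairs), and with the replicate block 66 members rose and 22 fell in the double mutant relative to lonp-1(cmh24). The block ended 1 call among the named genes, the rise of clec-153 there (adjusted p = 0.0506, limma).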
